A study of Homo sapiens with 8 samples.

Results

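The enzymes that write and erase methyl groups on histone lysines, and those that remove acetyl groups from them, were examined in PC3 cells, a human line established from a prostate cancer, after targeting of the arginine methyltransferase PRMT7. Protein-coding genes named KMT, KDM, HDAC, SIRT, SETD, EZH, EHMT, SUV39H or NSD followed by a digit, and not on the Y chromosome, were taken. The rule found 63 of the 58735 genes in the deposited table, and it used names alone, not measured values. By name, 26 were lysine methyltransferases (writers), 19 were demethylases and 18 were deacetylases, of which 11 were HDAC enzymes and 7 were sirtuins.

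Poly(A)-selected RNA was sequenced from 4 libraries labelled siCtrl and 4 labelled siPRMT7, all from PC3 cells. The genotype label is WT in siCtrl and PRMT7 knockdown in siPRMT7. Both groups were transfected with synthetic RNA by lipofection, the siCtrl group with a negative control, and were kept for 48 h afterwards. Sample titles use the prefix si while the library names use sh, and no sequence of the targeting RNA is given in the labels. Separate cultures for the replicates are not stated, so each p-value measures only the spread between these samples, which may be technical. The series title concerns PRMT7, the cell cycle and prostate cancer progression. The question put here is how transcript levels of the chromatin enzymes compared between the groups.

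Writers carrying a SET domain transfer methyl groups to particular lysines of histone tails. Methylation of H3 lysine 4 marks promoters and enhancers, that of lysine 36 marks transcribed gene bodies, and that of lysines 9 and 27 marks silent chromatin. Demethylases remove these groups, either by a flavin-dependent reaction (the LSD enzymes KDM1A and KDM1B) or by a JmjC domain that uses iron and 2-oxoglutarate. HDAC enzymes use zinc and sirtuins use NAD+ to remove acetyl groups, and many members of both families also act on proteins other than histones. Prostate cancer is known for high EZH2.

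PRMT7 itself was at 5.25, 4.86, 5.10 and 5.25 FPKM in siCtrl replicates 1 to 4 and at 4.62, 4.31, 5.01 and 4.82 in siPRMT7 replicates 1 to 4. FPKM is the fragment count of a gene scaled by its length in kilobases and by library size. The groups overlapped, and the means were 5.11 ± 0.183 and 4.69 ± 0.298 (SD, n = 4 each; two-sided exact permutation p = 0.0571). All 4 siPRMT7 libraries lay below the siCtrl mean, and the siPRMT7 mean differed from it by -8.29%, so the target gene gives only a small difference, one that missed the threshold, as a check of the labels. Of the epithelial markers, KRT19 stood at 286 to 379 FPKM and EPCAM at 6.87 to 8.06. The leukocyte gene PTPRC was at most 0.194 FPKM and the fibroblast gene DCN at most 0.0107, and the fibroblast and endothelial lists were split. COL1A1 was at 6.13 to 7.53 but COL1A2 at most 0.0280, and PECAM1 was at 2.83 to 3.64 but the endothelial genes CDH5 and VWF at most 0.0952 and 0.0192.

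Libraries held 14526030 to 15724862 fragments. On the first principal component of log2(FPKM + 1), which carried 31.4% of the variance, siPRMT7 replicate 2 scored 28.4 and the other 7 scored from -11.9 to 7.36. Ribosomal protein genes took 3.97% of its fragments and 2.99% to 3.49% of those of the other 7. Results on the enzymes are therefore given with and without this library.

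At the level of transcripts, PC3 cells expressed nearly the whole set. Of the 63 genes, 58 had a mean of at least 1 FPKM over the 8 libraries and 19 had at least 10. KDM4E and KDM4F had 0 fragments in all 8 libraries, and KDM8, HDAC8 and HDAC10 had means of 0.847, 0.599 and 0.305 FPKM. These 5 did not pass the filter of 1 FPKM in at least 4 of 8 libraries, leaving 58 tested (26 writers, 16 demethylases and 16 deacetylases). In bulk RNA, fewer cells with a transcript and less of it per cell cannot be told apart.

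HDAC1, a class I deacetylase of the NuRD, CoREST and SIN3 complexes, was the most abundant member at 51.9 FPKM over the 8 libraries. Its partner HDAC2 averaged 6.05, and the HDAC1 to HDAC2 ratio ran from 7.94 to 9.44 across libraries. HDAC3, the enzyme of the NCoR and SMRT complexes, averaged 14.1 FPKM. The class IIa enzymes, which shuttle between cytoplasm and nucleus, were spread from HDAC7 at 12.7 and HDAC5 at 10.6 to HDAC9 at 5.22 and HDAC4 at 1.995. Among the sirtuins, nuclear SIRT1 was highest at 18.2 FPKM, nuclear SIRT6 stood at 10.8 and nucleolar SIRT7 at 9.99. Mitochondrial SIRT3, SIRT5 and SIRT4 averaged 5.34, 2.97 and 1.62 FPKM.

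The demethylase levels were led by KDM2A at 27.02, an H3 lysine 36 demethylase with a CpG-binding zinc finger. It was followed by KDM5C at 25.4, which acts on H3 lysine 4, and by KDM1A at 23.6. Ranges over the 8 libraries overlapped between KDM2A and KDM5C and between KDM5C and KDM1A, whereas KDM1A and the next member, KDM3A at 14.0, did not overlap. The H3 lysine 27 demethylases KDM6A and KDM6B averaged 11.9 and 7.61.

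The writers were led by SETD3 at 16.6 and SETD5 at 16.1 FPKM. SETD3 is best known for methylating a histidine of actin, so its place in the set comes from its name rather than from a histone substrate. Below them came the H3 lysine 4 enzyme KMT2D at 11.7, the H3 lysine 9 enzyme EHMT2 at 11.2, the H4 lysine 20 enzyme KMT5A at 10.4 and the H3 lysine 36 enzyme NSD1 at 10.4. EZH2, the catalytic subunit of PRC2, averaged 7.84, and its homologue EZH1 averaged 3.78. Within classes the order was finely graded: ranges overlapped in 24 of 25 neighbouring pairs of writers, 13 of 18 pairs of demethylases and 9 of 17 pairs of deacetylases.

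**Figure D1:**
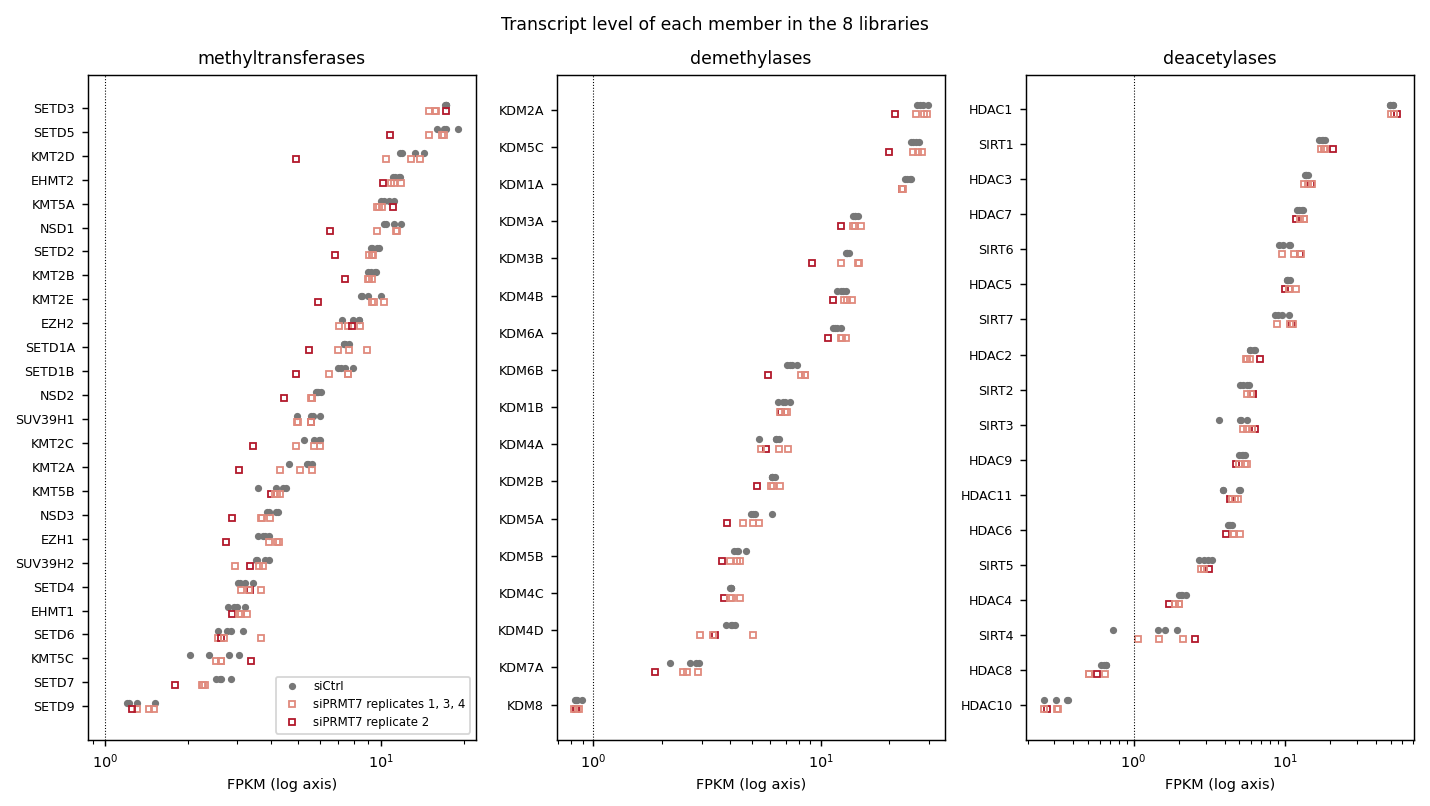
FPKM (log axis) of each member in each library, by class; grey circles are the 4 siCtrl libraries, light squares siPRMT7 replicates 1, 3 and 4, and dark red squares siPRMT7 replicate 2. Members at 0 FPKM are not drawn, the dotted line is at 1 FPKM, and KMT2D shows the lowest siPRMT7 replicate 2 value relative to its other libraries (4.92 against 10.5 to 14.3 FPKM).

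The scale of these levels rests on the gene length used, which joins all exons of a gene. For EHMT1 that length was 22217 bases, against 5137 for its longest coding transcript. Rescaled to the longest coding transcript of each gene, EHMT1 moved from place 22 to place 6 among the writers and SIRT7 from place 7 to place 2 among the deacetylases. HDAC1, SETD3 and SETD5 kept their places at the top, and KDM1A took the lead of the demethylases from KDM2A. The length also sets which genes reach 1 FPKM: per longest coding transcript, HDAC8 and KDM8 would stand at 2.42 and 1.39. Shared exonic sequence was largest for HDAC10 (55.8%, with MAPK12 on the same strand), KDM4A (48.5%, its largest overlap on the same strand) and SETD6 (21.4%, with CNOT1 on the opposite strand). The sources used here do not give the strand setting of the counting, which bears on SETD6. Overlaps on the same strand, as in HDAC10 and KDM4A, cannot be separated by strand. The values of these 3 are therefore uncertain.

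Between the groups, no member passed the test. limma on log2(FPKM + 1), with Benjamini-Hochberg adjustment over all 13436 genes tested, called 0 of 58 members at an adjusted p under 0.05, where it called 2 genes, or 0.0149%, in the whole table. The smallest adjusted p of a member was 0.291, for SETD7, and limma's voom on rebuilt fragments also called 0 members. At an unadjusted p under 0.05 there was 1 member higher in siPRMT7 (SIRT2) and 2 lower (SETD7 and KDM1A), where 13.2% of all genes tested lay under that p (7.67% higher and 5.49% lower). Between 0 and 3 members lay higher and between 0 and 4 lower at that p under the alternatives tried. Groups did not overlap for 3 members, KDM1A, NSD2 and SETD7, all of them lower in siPRMT7, where 8.57% of all genes had groups apart (4.14% higher and 4.43% lower). The share of members under that p was below that of the table, and the share with groups apart was 3 of 58 against 8.57%.

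The 95% intervals say how large a difference these libraries could hide. The pseudocount of 1 shrinks fold changes of weakly expressed genes. On this scale 56 of 58 intervals lay within 1.5-fold in either direction and 34 within 1.2-fold. The exceptions to the wider limit were KMT2D among the writers and SIRT4 among the deacetylases. SIRT4 rested on only 13 to 47 fragments per library, whereas KMT2D rested on 1513 to 4334.

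The 3 classes did not lean the same way. Of the 26 writers, 21 had a log2 fold change below 0 and 5 above, with a median of -0.08. The 16 demethylases were split 11 below and 5 above, with a median of -0.05. In contrast, 12 of the 16 deacetylases tested were above 0, with a median of 0.05. Over all genes tested, 50.5% lay below 0 and the median was -0.00. On the TPM scale, where the median of all genes was -0.04, 22 of 26 writers, 15 of 16 demethylases and 5 of 16 deacetylases lay below 0. The class medians were not tested.

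**Figure D2:**
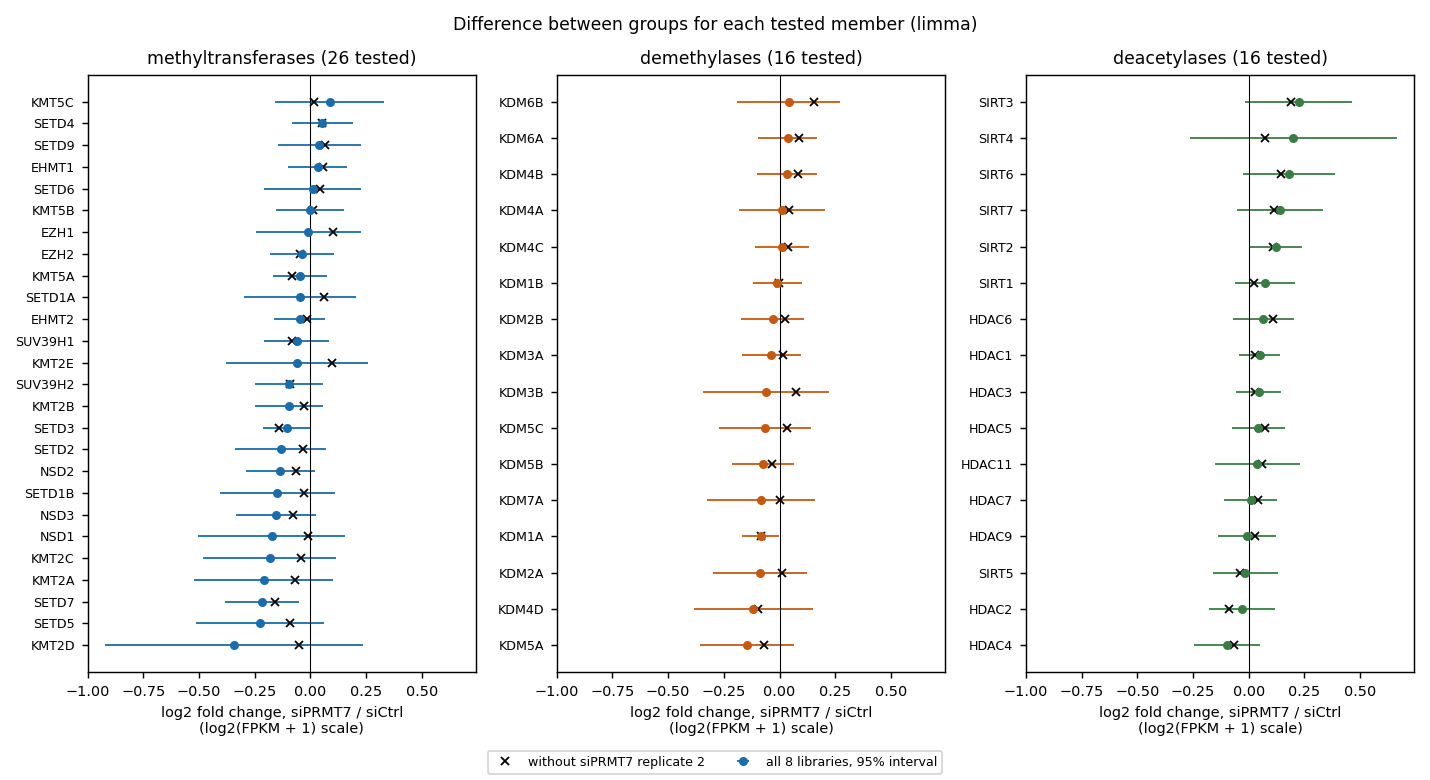
log2 fold change of siPRMT7 over siCtrl for each tested member, with its 95% limma interval over all 8 libraries (circles and bars) and the estimate without siPRMT7 replicate 2 (crosses). Most writers lie left of 0 and most deacetylases right of it, and many crosses of the writers and demethylases lie nearer to 0 or past it than the circles do.

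Part of that contrast moved with a single library. Without siPRMT7 replicate 2, the writers were 17 below 0 and 9 above (median -0.03), and the demethylases turned to 5 below and 11 above (median 0.02). The deacetylases stayed at 3 below and 13 above (median 0.05). That library was the lowest of the 8 for 32 of the 58 members, or 55.2%, against 27.1% of all genes tested, and the highest for 7 of the 58, against 29.6% of all genes. It was the lowest for 15 of 26 writers and 12 of 16 demethylases but for 5 of 16 deacetylases. Within the deacetylases it was the lowest for 5 of 9 HDAC enzymes and for 0 of 7 sirtuins. Its median deviation from the siCtrl mean was -0.05 for those HDAC enzymes and 0.22 for the sirtuins, on the log2(FPKM + 1) scale. Its median deviation from the siCtrl mean was -0.32 for writers, -0.19 for demethylases and 0.10 for deacetylases, on the log2(FPKM + 1) scale, and 0.02 over all genes. No other siPRMT7 library had a class median outside -0.08 to 0.09.

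**Figure D3:**
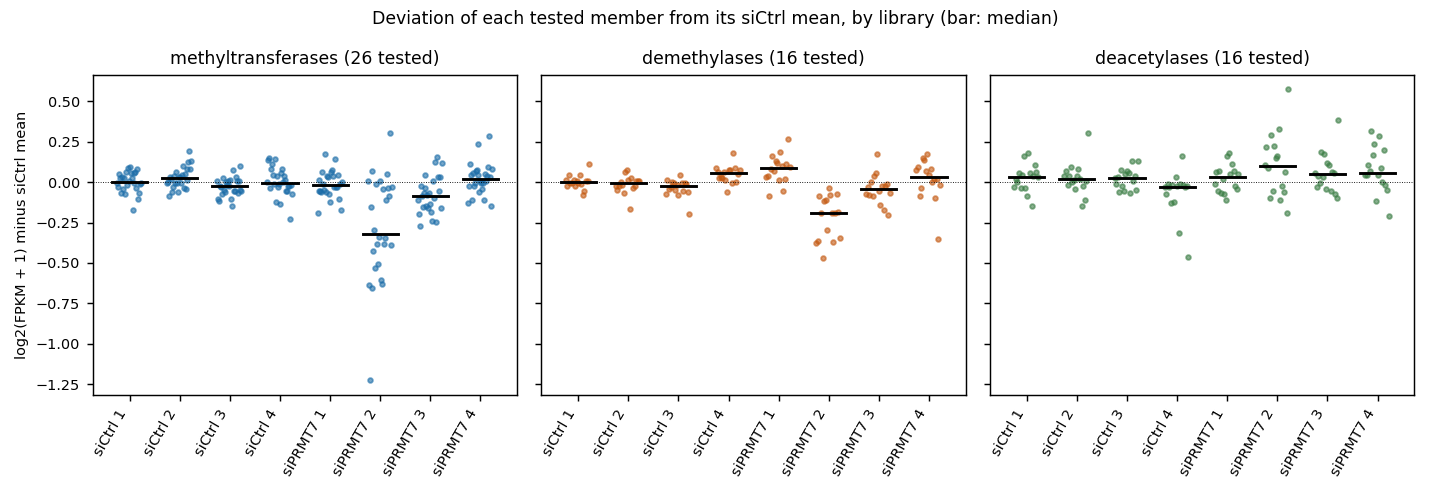
Deviation of each tested member from its siCtrl mean, in log2(FPKM + 1), in each of the 8 libraries; points are members and bars are medians. The medians of siPRMT7 replicate 2 are -0.32 for writers, -0.19 for demethylases and 0.10 for deacetylases, and the other siPRMT7 medians lie within -0.08 to 0.09.

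The low values of siPRMT7 replicate 2 went with gene length. Over all genes its median deviation was 0.17 for genes under 2000 exonic bases and -0.21 for genes of 10000 bases or more, on the log2(FPKM + 1) scale. Of the 22 tested members with 10000 bases or more, 11 were writers, 7 demethylases and 4 deacetylases, and their median deviation in that library was -0.32. Across the 58 members, which share that library, the deviation and the log of length had Pearson's r of -0.63 and Spearman's rho of -0.64, against a rho of -0.39 across all 13436 genes. By class, Pearson's r in that library was -0.67 for writers and -0.80 for deacetylases but -0.19 for demethylases (rho of -0.35). Writers had a median length of 8473 bases, demethylases of 9079 and deacetylases of 6188, against 4333 for all genes tested. With each library's trend on length removed, the counts below and above 0 were 20 and 6 for writers (median -0.05), 8 and 8 for demethylases (median 0.01) and 1 and 15 for deacetylases (median 0.07). A trend of the same sign, over all genes, was also present in siPRMT7 replicate 3 (rho of -0.30, with band medians from 0.09 for the shortest to -0.08 for the longest). In siPRMT7 replicate 4 the rho was -0.17, with band medians from 0.04 to -0.04, whereas siPRMT7 replicate 1 had a rho of 0.02. Control libraries also differed by length: band medians went from 0.04 to -0.03 in siCtrl replicate 3 and from -0.03 to 0.03 in siCtrl replicate 4. Across the members, rho was -0.26 in siPRMT7 replicate 3 and -0.15 in siPRMT7 replicate 4, and Pearson's r was -0.41 and -0.04. What set the length trends was not tested.

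**Figure D4:**
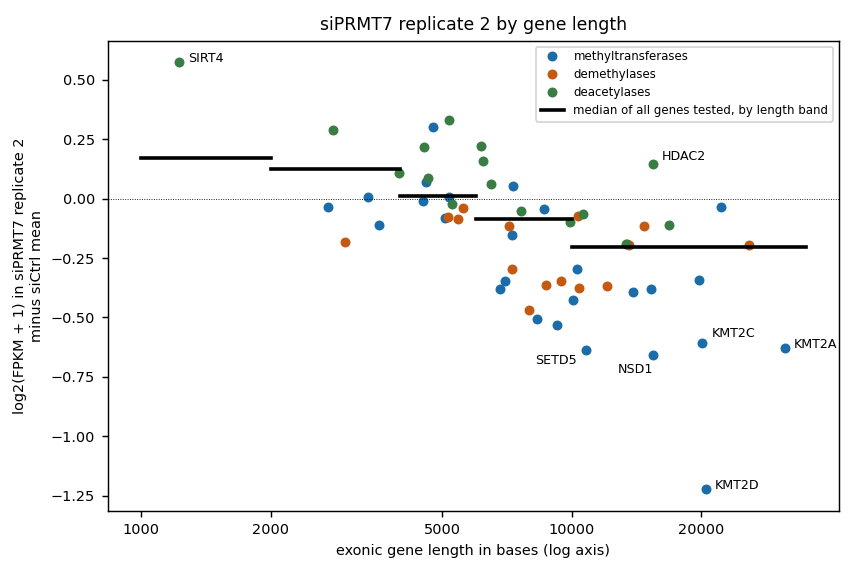
Deviation of each tested member in siPRMT7 replicate 2 from its siCtrl mean, in log2(FPKM + 1), against exonic gene length in bases (log axis). Black bars are medians of all genes tested in each length band, and the outer ends of the first and last bars are arbitrary. They go from 0.17 to -0.21, and KMT2D, KMT2A, KMT2C, NSD1 and SETD5 lie below them.

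In siPRMT7 replicate 2, the H3 lysine 4 writers were low as a group. The group holds the catalytic subunits of the COMPASS and COMPASS-like complexes (KMT2A to KMT2D, SETD1A and SETD1B), KMT2E and the monomethylating enzyme SETD7. All 8 had log2 fold changes below 0, with a median of -0.17, and all 8 were lowest in siPRMT7 replicate 2. KMT2D was at 13.3, 11.99, 11.8 and 14.3 FPKM in siCtrl and at 12.9, 4.92, 10.5 and 13.9 in siPRMT7. Replicate 2 thus held 38.3% of the siCtrl mean, while the other 3 siPRMT7 libraries averaged 12.4 FPKM, near the siCtrl mean of 12.9 ± 1.21 (SD, n = 4). KMT2A stood at 3.06 FPKM in replicate 2 and at 4.32 to 5.65 in the other 7 libraries. KMT2C stood at 3.43 and at 4.93 to 6.05 in the same order. KMT2A, KMT2C and KMT2D are singled out here after their values were seen. Without replicate 2, 6 of the 8 genes were below 0, with a median of -0.04. With the length trend removed, all 8 were below 0, with a median of -0.07. Their median deviation in siPRMT7 replicate 2 was -0.52 on the log2(FPKM + 1) scale, and -0.31 with the length trend removed.

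SETD7 (ENSG00000145391, chromosome 4, 139495941 to 139606699 on the minus strand of GRCh38) was the writer with the smallest p. It was at 2.63, 2.87, 2.53 and 2.61 FPKM in siCtrl and at 2.24, 1.79, 2.27 and 2.31 in siPRMT7. Every siPRMT7 library lay below every siCtrl library, and replicate 2 was the lowest. The mean differed by -19.1%, with a log2 fold change of -0.22 ± 0.07 (SE; limma adjusted p = 0.291). Without replicate 2 the log2 fold change was -0.16, with an adjusted p of 0.322 by limma. This enzyme also methylates non-histone proteins, p53 among them.

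The H3 lysine 36 writers NSD1, NSD2, NSD3 and SETD2 were likewise all below 0, with a median of -0.14, and all lowest in siPRMT7 replicate 2. SETD2 makes the trimethyl mark behind elongating polymerase, and the NSD enzymes make the dimethyl mark. NSD2 (ENSG00000109685, chromosome 4, 1871424 to 1982207, plus strand) was at 5.94, 6.06, 5.82 and 5.87 FPKM in siCtrl and at 5.58, 4.46, 5.62 and 5.64 in siPRMT7. Its groups did not overlap, though 3 of the 4 siPRMT7 values lay close under the lowest siCtrl value. The log2 fold change was -0.13 ± 0.07 (SE; limma adjusted p = 0.428), -0.07 without replicate 2 and -0.03 with the length trend removed. NSD3 was at 3.87 to 4.25 FPKM in siCtrl and 2.88 to 3.96 in siPRMT7, and its log2 fold change was -0.15 ± 0.08 (SE; limma adjusted p = 0.435), -0.08 without replicate 2 and -0.06 with the length trend removed. Without replicate 2, the 4 genes were still below 0, with a median of -0.05.

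SETD3 was the writer with the steadiest control values: 17.2, 17.2, 17.3 and 17.3 FPKM in siCtrl. The siPRMT7 libraries stood at 15.0, 17.3, 15.9 and 15.7, so here replicate 2 was the only siPRMT7 library at the siCtrl level. The log2 fold change was -0.11 ± 0.05 (SE; limma adjusted p = 0.383). Without replicate 2 it was -0.14, with an adjusted p of 0.178 by limma. SETD5, a SET-domain protein tied to transcriptional repression and intellectual disability, was at 16.0 to 19.1 FPKM in siCtrl. In siPRMT7 it was at 16.7, 10.8, 15.0 and 17.0, with a log2 fold change of -0.23 ± 0.13 (SE; limma adjusted p = 0.46) that was -0.09 without replicate 2. SETD3 and SETD5 thus had opposite relations to that library.

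The H3 lysine 9, H3 lysine 27 and H4 lysine 20 writers lay mostly below 0. Without replicate 2 that lean was kept by the H3 lysine 9 enzymes alone. Of the H3 lysine 9 enzymes (SUV39H1, SUV39H2, EHMT1 and EHMT2), 3 of 4 were below 0, with a median of -0.05 that was -0.05 without replicate 2 and -0.06 with the length trend removed. The H3 lysine 27 enzymes EZH1 and EZH2 had a median of -0.02 with both below 0, and 0.03 with 1 below without replicate 2. The H4 lysine 20 enzymes KMT5A, KMT5B and KMT5C had a median of -0.00 with 2 of 3 below 0, and 0.01 with 1 of 3 below without replicate 2. EZH2 was at 8.33, 8.32, 7.93 and 7.21 FPKM in siCtrl and at 7.58, 7.86, 7.05 and 8.40 in siPRMT7. Its groups overlapped over most of their range, and its highest value was in an siPRMT7 library.

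KDM1A (ENSG00000004487, chromosome 1, 23019443 to 23083689, plus strand), which removes methyl groups from H3 lysine 4 in the CoREST complex, was the demethylase with the smallest p. It was at 25.0, 23.9, 23.5 and 24.8 FPKM in siCtrl and at 22.8, 22.8, 23.0 and 22.8 in siPRMT7. The groups did not overlap, and the 4 siPRMT7 libraries lay within a narrow range that included replicate 2. The mean differed by -5.91%, with a log2 fold change of -0.08 ± 0.04 (SE; limma adjusted p = 0.371), and it was -0.08 without replicate 2 as well. With the length trend removed it was -0.08 again. KDM1A thus had the same small estimate with and without the divergent library, and did not pass the test.

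The other demethylases with the smallest p overlapped between groups. KDM5A, an H3 lysine 4 demethylase that binds the retinoblastoma protein, was at 4.92 to 6.08 FPKM in siCtrl and 3.85 to 5.36 in siPRMT7. Its log2 fold change was -0.14 ± 0.09 (SE; limma adjusted p = 0.509), and -0.07 without replicate 2. KDM5B, of the same family, was at 4.16 to 4.68 and 3.68 to 4.42, with a log2 fold change of -0.08 that was 0.05 with the length trend removed. KDM2A was at 26.4 to 29.5 and 21.2 to 29.3, with a log2 fold change of -0.09 that was 0.01 without replicate 2. Neither KDM5B nor KDM2A thus held its direction. KDM4D, an H3 lysine 9 demethylase without the reader domains of its relatives, was at 3.81 to 4.19 FPKM in siCtrl. In siPRMT7 it spread from 2.94 in replicate 4 to 5.03 in replicate 1, with a log2 fold change of -0.12 ± 0.12 (SE; limma adjusted p = 0.659). That value was -0.25 without siPRMT7 replicate 1 and -0.04 without siPRMT7 replicate 4.

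Among the JmjC families, the 3 KDM5 genes, the KDM2 pair and the KDM3 pair were all below 0, and the KDM6 pair was above 0. KDM4 genes were 3 of 4 above 0. Without replicate 2, the KDM2 and KDM3 pairs lay above 0 and 2 of the 3 KDM5 genes remained below. KDM3B showed how far 1 library reached: it was at 9.17 FPKM in siPRMT7 replicate 2 and at 12.3 to 14.7 in the other 7 libraries. This gene was picked with its values already known.

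Sirtuins lay mostly above 0: 6 of 7 had a log2 fold change above 0, with a median of 0.14, and SIRT5 at -0.02 was the exception. Without replicate 2 the count was again 6 of 7, with a median of 0.11, and with the length trend removed it was 7 of 7, with a median of 0.12. SIRT2 (ENSG00000068903, chromosome 19, 38878555 to 38899862, minus strand), a largely cytoplasmic enzyme that deacetylates tubulin, was at 5.07, 5.62, 5.76 and 5.32 FPKM in siCtrl. It was at 6.19, 6.18, 5.99 and 5.64 in siPRMT7. All 4 siPRMT7 values lay above the siCtrl mean, and the groups overlapped through siPRMT7 replicate 4 alone. The mean was 10.3% higher, with a log2 fold change of 0.12 ± 0.05 (SE; limma adjusted p = 0.371). Without replicate 2 the log2 fold change was 0.11, with an unadjusted p of 0.0803 by limma.

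SIRT3, the main mitochondrial deacetylase, was at 5.60, 5.16, 5.04 and 3.67 FPKM in siCtrl and at 5.59, 6.31, 5.26 and 6.08 in siPRMT7. siCtrl replicate 4 was the lowest of the 8, and siCtrl replicate 1 alone lay within the siPRMT7 range. The log2 fold change was 0.22 ± 0.11 (SE; limma adjusted p = 0.395), and it ranged from 0.12 to 0.28 when each library was left out in turn. SIRT6, a chromatin deacetylase of H3 lysine 9 known for genome stability and glycolytic genes, was at 9.76, 10.8, 10.6 and 9.10 in siCtrl and at 9.53, 12.5, 11.6 and 12.8 in siPRMT7. Here 3 siPRMT7 libraries lay above all siCtrl libraries and replicate 1 lay among them. Its log2 fold change was 0.18 ± 0.09 (SE; limma adjusted p = 0.421), and 0.26 without siPRMT7 replicate 1, where the adjusted p was 0.119. SIRT7, a nucleolar enzyme that acts on H3 lysine 18, had the same layout, with 8.57 to 10.7 FPKM in siCtrl and 8.91, 11.1, 10.8 and 11.3 in siPRMT7. Its log2 fold change was 0.14 ± 0.08 (SE; limma adjusted p = 0.489). Without siPRMT7 replicate 2, the log2 fold changes of SIRT3, SIRT6 and SIRT7 were 0.19, 0.14 and 0.11.

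A control library also took part in the sirtuin pattern. siCtrl replicate 4 was the lowest of the 8 libraries for 5 of the 7 sirtuins, and its median deviation over them was -0.12 on the log2(FPKM + 1) scale. The other siCtrl libraries had medians of 0.03 to 0.07. In siPRMT7 the medians were 0.05, 0.22, 0.12 and 0.05 in replicates 1 to 4, so each siPRMT7 library had a median above 0. Without siCtrl replicate 4, 6 of 7 sirtuins were again above 0, with a median of 0.10, and SIRT3 stood at 0.12 in place of 0.22.

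**Figure D5:**
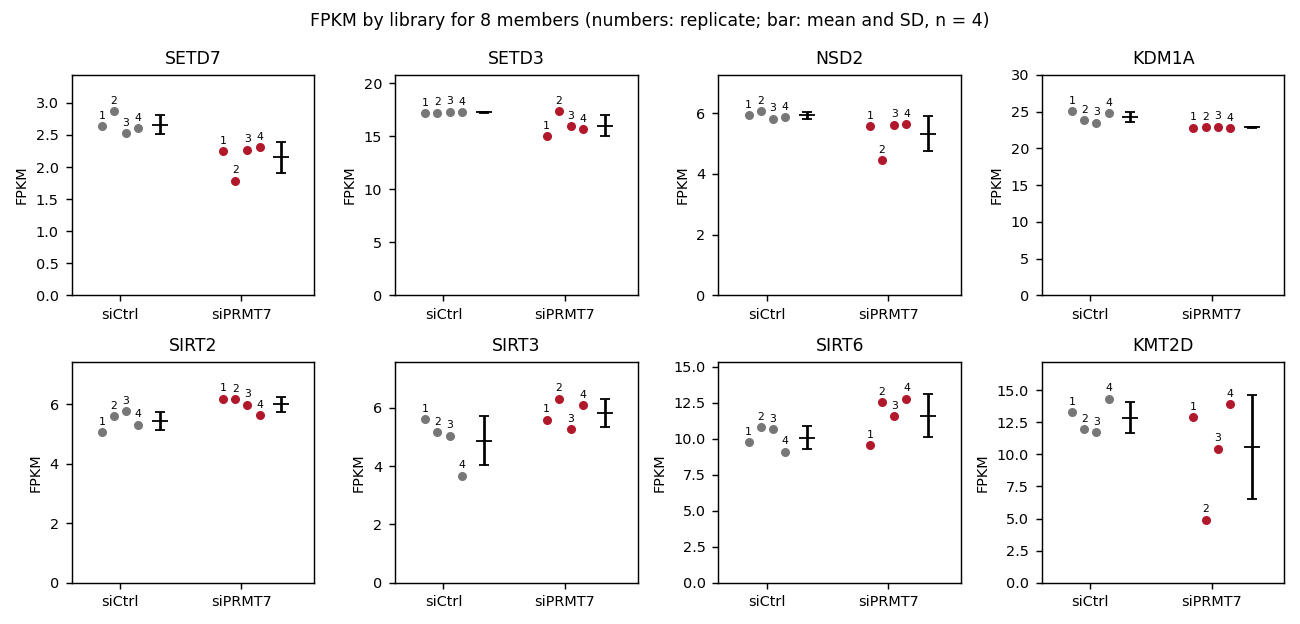
FPKM in each library for 8 members, with the replicate number above each point and the mean and SD (n = 4) beside each group; all axes start at 0. SETD7, NSD2 and KDM1A have groups that do not overlap, SIRT2, SIRT3 and SIRT6 overlap, and KMT2D has 1 low library, siPRMT7 replicate 2 at 4.92 FPKM.

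The zinc-dependent HDAC enzymes leaned less: 6 of 9 tested were above 0, with a median of 0.04. HDAC1 was at 49.8 to 52.3 FPKM in siCtrl and 50.5 to 55.0 in siPRMT7, and HDAC3 was at 13.7 to 14.2 and 13.3 to 15.0. HDAC4, a class IIa enzyme, was at 2.227, 2.105, 1.996 and 2.047 in siCtrl and at 1.997, 1.708, 1.888 and 1.993 in siPRMT7, so the groups barely overlapped. The log2 fold change was -0.10 ± 0.07 (SE; limma adjusted p = 0.527), and -0.01 with the length trend removed. HDAC8 and HDAC10, which were not tested, were at 0.506 to 0.656 and 0.254 to 0.366 FPKM.

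Balance within pairs of related enzymes was compared as a ratio of FPKM inside each library. In 11 of 12 pairs the same gene was higher in all 8 libraries, and SETD1A and SETD1B, at similar levels, exchanged places. EZH2 exceeded EZH1 by 1.68 to 2.86 times, SUV39H1 exceeded SUV39H2 by 1.39 to 1.67 times, and KDM1A exceeded KDM1B by 3.19 to 3.66 times. The HDAC4 to HDAC5 ratio was the only one whose groups did not overlap. Its log2 values were -2.28, -2.31, -2.36 and -2.33 in siCtrl and -2.41, -2.56, -2.51 and -2.58 in siPRMT7. HDAC4 was thus slightly lower relative to HDAC5 in every siPRMT7 library, a pattern found among 12 pairs and not tested. Of these genes, HDAC4 has 13368 exonic bases and HDAC5 has 7618.

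Partner genes of the same pathways gave a similar picture of small shifts, and limma called 0 of them at an adjusted p under 0.05 (0.0149% of all genes). DPY30, CXXC1, SIN3A, SMYD5 and KAT7 were the 5 under an unadjusted p of 0.05, against 13.2% of all genes. PRC2 partners were 8 of 10 below 0, with a median of -0.05, and the smallest p values belonged to PHF19 and JARID2. Both recruit or tune PRC2, and their log2 fold changes were -0.10 ± 0.06 and -0.14 ± 0.09 (SE), or -0.07 and -0.05 without replicate 2. COMPASS partners were split 5 and 5 with and without replicate 2, and 6 of 10 were below 0 with the length trend removed. Of the H3 lysine 4 writers, 8 of 8 were below 0, and 6 of 8 without replicate 2. The median length was 5065 bases for these partners and 12098 for those writers. DPY30, a small core subunit, was at 9.68 to 12.2 FPKM in siCtrl and 10.9 to 15.5 in siPRMT7, with its highest value in replicate 2 (log2 fold change 0.26 ± 0.10, SE; limma adjusted p = 0.351), or 0.17 without it. CXXC1, the CpG-binding subunit of the SETD1 complexes, was at 9.001 to 10.3 and 10.5 to 10.9, with groups apart (log2 fold change 0.12 ± 0.05, SE; limma adjusted p = 0.359).

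Among corepressor subunits of the NuRD, CoREST, SIN3 and NCoR complexes, 12 of 19 tested were below 0, with a median of -0.04, and 10 of 19 without replicate 2, with a median of -0.02. SIN3A, the scaffold of the SIN3 complex, was at 6.95 to 8.03 FPKM in siCtrl and at 6.82, 4.93, 6.46 and 6.72 in siPRMT7. Its groups did not overlap (log2 fold change -0.21 ± 0.09, SE; limma adjusted p = 0.364), and its log2 fold change without replicate 2 was -0.12. TBL1X, of the NCoR complex, had a log2 fold change of -0.13 ± 0.06 (SE; limma adjusted p = 0.393), and -0.08 without replicate 2. Of the acetyltransferases, which oppose the deacetylases, 9 of 11 tested were below 0, with a median of -0.13, and 8 of 11 without replicate 2, with a median of -0.03. KAT7 was at 7.31 to 8.35 and 6.26 to 7.48 FPKM, with a log2 fold change of -0.17 ± 0.06 (SE; limma adjusted p = 0.31). KAT6A, at 1.52 FPKM in siPRMT7 replicate 2 and 2.70 to 3.39 elsewhere, had a log2 fold change of -0.21, and -0.05 without that library.

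For lysine methyltransferases and demethylases whose names fall outside the rule, the counts below 0 also moved with that library. Of 10 other methyltransferases, 7 were below 0 (median -0.02), 5 without replicate 2 (median -0.01) and 4 with the length trend removed (median 0.01). SMYD5 had groups apart at 15.8 to 17.2 FPKM in siCtrl and 13.5 to 15.6 in siPRMT7. Its log2 fold change was -0.13 ± 0.05 (SE; limma adjusted p = 0.36), and it was -0.15 without replicate 2 and -0.17 with the length trend removed. The zinc-finger methyltransferase PRDM2 had a log2 fold change of -0.13 that was -0.05 without replicate 2. Of 6 other demethylases, 5 were below 0 (median -0.11), and 4 without replicate 2 (median -0.02). PHF2 and HR, at -0.15 and -0.12, were -0.04 and -0.02 without replicate 2.

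Proliferation markers are given beside the enzymes, since the series title names the cell cycle. All 12 had a log2 fold change below 0, with a median of -0.25, and 8 had an unadjusted limma p under 0.05 (5.49% of all genes were lower at that p). With adjustment over all genes 0 passed, and the smallest adjusted p was 0.101. ANLN, a cytokinesis scaffold, was at 17.9 to 19.3 FPKM in siCtrl and 14.2 to 15.8 in siPRMT7, and KIF11, a spindle motor, was at 6.70 to 7.42 and 5.22 to 5.67. Their log2 fold changes were -0.30 ± 0.05 and -0.31 ± 0.05 (SE; limma adjusted p = 0.101 and 0.113). Both passed with the length trend removed (limma adjusted p = 0.0471 for ANLN and 0.0490 for KIF11), and neither did when the replicate block was added to that fit (limma adjusted p = 0.197 for both). The median of this list without replicate 2 was -0.22. Whether the share of cycling cells bears on any enzyme was not tested.

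Promoters were searched because several writers, EZH2 best known among them, are targets of E2F factors, which drive S-phase genes. RefSeq windows on GRCh38.p14, 250 bases before to 50 after a start, were matched for 58 of the 63 genes by symbol, and HDAC5, KDM4E, NSD3, SETD1B and SIRT7 had none. The 8-base letters TTTCCCGC, TTTGGCGC, TTTGGCGG and TTTCCCGG were sought on both strands. At least 1 was held by 8 of 58 members, or 13.8%, and by 7.06% of protein-coding genes with a window. Counted per window, as a gene can have more than 1, the shares were 8.99% and 5.37%. The median share of G and C bases was 68.7% in member windows and 62.3% in those of protein-coding genes. Whether base content bears on the shares was not tested. The 9 matches did not overlap each other. The cell-cycle homology letters TTTGAA were held by 12.1% of members and 15.9% of protein-coding genes. The sequences below are 30 bases of the gene's own strand, 5′ to 3′, with the matched letters in capitals, for the writers with a match and for KDM5A and SIRT6, whose values are given above.
EZH2, chr7:148884272-148884301, minus strand: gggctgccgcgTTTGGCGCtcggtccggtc
NSD2, chr4:1871305-1871334, plus strand: cggcgcgcactTTTCCCGCggcttctgcga
KMT5A, chr12:123384151-123384180, plus strand: cgaaagctgggTTTCCCGGgagatcccagg
EZH1, chr17:42745141-42745170, minus strand: gagtgcggggtTTTGGCGGcaaatgacagt
KDM5A, chr12:389429-389458, minus strand: ctgggcagaacTTTGGCGGgcaaggagaca
SIRT6, chr19:4182770-4182799, minus strand: ggccgccccaaTTTCCCGCccgggtcatcg
In NSD2 the matched letters begin 77 bases before the start, in KDM5A 127, in EZH1 119 and in SIRT6 225, whereas in EZH2 and KMT5A they begin at bases 2 and 31 of the transcript. Of the genes shown with a difference above, NSD2 and KDM5A were lower in siPRMT7 and SIRT6 was higher, none of them past the test. A match describes letters in a window, and binding was not measured here.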

How the data were processed

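RNA was measured in 8 PC3 libraries, 4 per group, with groups taken from sample titles. The authors deposited 1 table of FPKM values, a unit that the table's name gives and its values fit, and the library sizes behind them differ slightly from the fragment totals. Tools listed in the submitters' processing notes are cutadapt 2.5, HISAT2 2.1.0 and featureCounts 1.6.3, with no role given. These notes also list a mouse build, but all 58735 gene identifiers match GENCODE 29 coordinates on GRCh38. Whole fragments were rebuilt from FPKM and length for 100% of values, within 0.01 fragments. The test took genes reaching 1 FPKM in 4 or more of the 8 libraries, on log2 of FPKM plus a pseudocount of 1, by limma 3.58.1 under R 4.3.3 (variance trend, not robust, two-sided, threshold 0.05). PRMT7 was tested by a two-sided exact permutation test over samples.

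Differences are named for members under an unadjusted p of 0.05, the 5 smallest p in each class, the 2 smallest in each partner list, and PRMT7. Members and lists were chosen with earlier results of these data known. Tested on simulated data for this comparison (13478 genes), limma recovered 12.5% of 1.2-fold, 85.42% of 1.5-fold and 100% of 2-fold changes, and 10 of 153 genes called were unchanged ones. The simulation gave every gene the same dispersion of counts, with no divergent library and no length trend. Changes were planted only in genes with more than a minimum of expected fragments. Recovery in the measured libraries may therefore be lower than these shares. Alternatives changed the pseudocount, filter, scaling, variance model, length trend and replicate block, or left out each library. limma's intervals cover library-to-library spread. Protein sequences were not used here. Values of some marker genes are not reported here.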

Additional observations from a re-analysis of the deposited data

Results flagged for a closer look

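In a group of 4, a library was marked where its gap to the nearest of the other 3 took up most of the group's range (Dixon's 95% limit). Of 130 groups examined, 9 were marked, where chance at 1 in 20 gives 6.5. siPRMT7 replicate 2 held 6 of them, 5 as the lowest. It had 6.82 FPKM for SETD2 against 9.04 to 9.41 in the other siPRMT7 libraries, 7.40 for KMT2B against 8.99 to 9.30, and 5.88 for KDM6B against 8.14 to 8.53. It had 4.46 for NSD2 against 5.58 to 5.64 and 1.79 for SETD7 against 2.24 to 2.31. In KMT5C it was the highest, at 3.37 against 2.52 to 2.64. The other 3 were scattered: siCtrl replicate 2 was lowest for KDM4A (5.37 against 6.37 to 6.52), siCtrl replicate 4 was highest for KDM5A (6.08 against 4.92 to 5.11), and siPRMT7 replicate 4 was highest for SETD6 (3.67 against 2.57 to 2.70).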

How the results depend on the processing

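No member passed in any of 21 alternatives, and the smallest adjusted p was 0.119, for SIRT6 without siPRMT7 replicate 1 (limma). Members higher at an unadjusted p under 0.05, 1 in all 8 libraries, numbered 0 with FPKM of at least 5, 0 on the TPM scale and 3 with the length trend removed. Those lower, 2 in all 8 libraries, numbered 0 with FPKM of at least 5, 1 without a variance trend and 1 with protein-coding genes alone. Leaving out each library gave 0 to 2 higher and 1 to 4 lower. With the replicate block these were 0 and 1, and with the block and the length trend removed 2 and 0. Samples of the same number were not treated as paired in the main fit. Their deviations correlated at -0.03, -0.01, 0.05 and 0.06, which cannot show whether they were handled together. The class medians ran from -0.13 to -0.03 for writers, -0.09 to 0.02 for demethylases and 0.0076 to 0.07 for deacetylases, with the lowest on the TPM scale. KDM5B, at -0.08, turned to 0.049 with the length trend removed, with and without the block, and KDM2A ran from -0.14 to 0.0090 when each library was left out, the positive value without siPRMT7 replicate 2. ANLN and KIF11 passed with the length trend removed and with library weights (limma adjusted p = 0.0326 and 0.0339), and in no other alternative (0.0532 to 0.339). PRMT7 had an exact permutation p of 0.0286 on the TPM scale, the smallest that 4 against 4 allows. On that scale the median of all genes was -0.04. By limma on log2(FPKM + 1), the PRMT7 log2 fold change was -0.10 (limma unadjusted p = 0.0826). It was -0.07 without siPRMT7 replicate 2 (limma unadjusted p = 0.171) and -0.05 with the length trend removed (limma unadjusted p = 0.341). The cause of these shifts was not tested.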
